A study of Mus musculus with 6 samples.

Results

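Among the CpG islands (CGIs) of mouse liver measured here, those with a low methylation signal in control animals were examined for a gain in Mdr2-KO livers. Because the files name no islands, 3 or more neighbouring probes whose starts lay within 500 bp of each other were taken as 1 CGI. A CGI was called low where its mean signal over the 3 Mdr2-/+ livers was -0.5 or less, on the log2 scale and relative to the median probe of the same array. This rule took 3506 of the 13431 CGIs on chromosomes 1 to 19 (26.1%). The Mdr2-/+ values chose these CGIs, so their level in Mdr2-/+ livers is a description and was not tested, and their difference between the genotypes shares those values.

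CGIs are stretches rich in CpG dinucleotides, many of them at promoters, and in normal adult tissue most of them carry little 5-methylcytosine. Methylation that is newly laid on such a CGI is a known feature of ageing, chronically inflamed and cancerous tissue, and at a promoter it often goes with a silent gene. Mdr2 (Abcb4) is the canalicular transporter that brings phosphatidylcholine into bile. Without it, bile salts injure the bile ducts, and the liver goes through chronic inflammation and regeneration before tumours form.

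Methylated DNA was pulled out of sheared liver DNA with an antibody against 5-methylcytosine (MeDIP). The precipitated DNA carried Cy5 and the total DNA of the same liver (the input) carried Cy3, and both were hybridised to an Agilent CGI array, 1 array per mouse. The groups were 3 Mdr2-KO males, which lack both copies of Mdr2, and 3 heterozygous Mdr2-/+ males as controls, all of strain FVB and 12 months old, so that every animal carried at least 1 mutant allele. The DNA came from whole liver tissue, in which hepatocytes, bile duct cells and inflammatory cells are mixed, and a gain in few cells cannot be told apart from a partial gain in many.

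The 6 arrays lay on 3 slides. Slide 1 held replicate 1 of both genotypes, slide 2 held Mdr2-/+ replicates 2 and 3, and slide 3 held Mdr2-KO replicates 2 and 3. Slide cannot be told apart from genotype on these last 4 arrays, and values within slide 1 are therefore given beside the main results. Correlations between arrays over all CGIs lay between 0.891 and 0.963.

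A low ratio is not by itself a measure of absent methylation. MeDIP signal is also low where a fragment holds few CpGs, and the ratio was read relative to each array, so the low CGIs are not called unmethylated here. The threshold cut a continuous range. The members just inside it, on chromosomes 5, 17 and 7, each had a Mdr2-/+ mean of -0.50, and so did the CGIs just outside it on chromosomes 5, 12 and 9. The lowest member had a Mdr2-/+ mean of -2.32 and the median member had -0.75. In the MeDIP channel, 67.3% to 74.8% of the probes of low CGIs were well above background on the Mdr2-/+ arrays and 72.8% to 80.5% on the Mdr2-KO arrays. At other CGIs this share was 82.2% to 88.7% over the 6 arrays.

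Most low CGIs stayed low in the mutant. The median level of the 3506 CGIs was -0.80, -0.76 and -0.75 in Mdr2-/+ replicates 1 to 3 and -0.77, -0.86 and -0.74 in Mdr2-KO replicates 1 to 3. Their median difference, Mdr2-KO minus Mdr2-/+, was -0.02 on the log2 scale (quartiles -0.14 and 0.13). The Mdr2-KO mean was still at or below -0.5 at 2964 of them (84.5%), and 1949 (55.6%) were at or below -0.5 in all 6 livers. The genotypes overlapped at 2762 low CGIs (78.8%).

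At 454 low CGIs (12.9%) every Mdr2-KO liver lay above every Mdr2-/+ liver, and at 290 (8.27%) every Mdr2-KO liver lay below. Over all 13822 CGIs tested these shares were 15.9% and 10.8%. Most of these separations were small. The difference was under 0.5 at 280 of the 454 gains, and it was above -0.5 at 264 of the 290 falls. Larger differences leaned one way. A difference of 1 or more was seen at 34 low CGIs and one of -1 or less at 0, and 182 CGIs differed by 0.5 or more against 32 by -0.5 or less. The same counts over all CGIs are not given here. All 13822 CGIs leaned upward too, with 591 called higher and 29 lower by limma at an adjusted p under 0.05. The lean is therefore not read as particular to low CGIs.

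By limma, 93 low CGIs were higher in Mdr2-KO livers and 7 were lower at an adjusted p under 0.05. These are 2.65% and 0.2% of the low CGIs, where 4.28% and 0.21% of all CGIs were called. Nothing is read from the comparison of these shares, since the Mdr2-/+ values chose the CGIs. By unadjusted p under 0.05, limma had 354 low CGIs higher (10.1%) and 151 lower (4.31%), against 14.8% and 5.51% of all CGIs. At each of the 93 the livers of the genotypes did not overlap. The median difference of the 93 was 0.84 (quartiles 0.70 and 1.13, range 0.50 to 2.46), from a median Mdr2-/+ level of -0.76 to a median Mdr2-KO level of 0.09. The 7 that were lower had differences between -0.73 and -0.51.

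**Figure D1:**
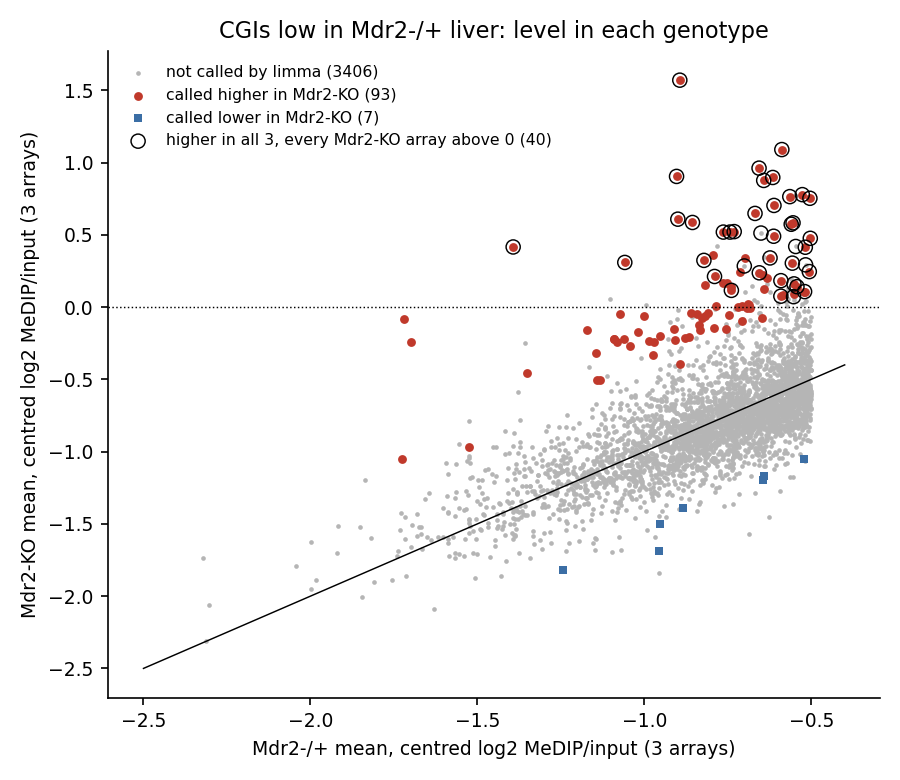
Each point is 1 of the 3506 CGIs low in Mdr2-/+ liver, with its mean centred log2 MeDIP/input ratio in 3 Mdr2-/+ livers on the x axis and in 3 Mdr2-KO livers on the y axis. Red points (93) were called higher and blue squares (7) lower by limma, open circles mark the 40 CGIs that rose above the array median (dotted line) in every Mdr2-KO liver, and the solid line marks equal levels; most CGIs lie along that line, and the points far from it are mostly above.

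How far the gain went differed between CGIs. At 40 low CGIs (1.14%) all 3 Mdr2-KO livers were higher than every Mdr2-/+ liver and also above 0, the median probe of the array. Over all 13822 CGIs this share was 11.2%. Of the 40, 35 were among the 93 that limma called, and 3.84% of all CGIs were called higher with every Mdr2-KO liver above 0. The median difference of the 40 was 1.14 and their median level in Mdr2-KO livers was 0.48. Only 5 low CGIs had every Mdr2-KO liver above 0.5. At the other end, 24 of the 93 CGIs called higher had all 3 Mdr2-KO livers below 0, and at 4 of them the Mdr2-KO mean was still at or below -0.5.

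Crossings were most frequent at CGIs that started near the threshold. A smaller rise is enough to cross 0 from there, so this order follows at least in part from the definition. Of the 1749 CGIs with a Mdr2-/+ mean between -0.75 and -0.5, 44 were called higher and 31 crossed 0 in every Mdr2-KO liver. Of the 1026 CGIs between -1 and -0.75, 30 were called and 7 crossed. Of the 646 between -1.5 and -1, 15 were called and 2 crossed. Of the 85 at or under -1.5, 4 were called and 0 crossed. The share called was thus between 2.32% and 4.71% over these levels. Of the 40 that crossed, 14 had every Mdr2-/+ liver at or below -0.5.

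Choosing CGIs for a low value in 1 genotype by itself favours a higher value in the other, so the same rule was applied the other way round. It took 3879 CGIs low in Mdr2-KO liver, of which 648 were higher in all 3 Mdr2-/+ livers and 143 were lower. Small differences in the chosen direction were thus no fewer when the genotypes were exchanged (648 against 454). Large ones were fewer. Of the 3879 CGIs, 3 were higher in Mdr2-/+ livers by 1 or more against 34 in the rule as used here, and 3 had every Mdr2-/+ liver above 0 against 40. Limma called 20 of the 3879 higher in Mdr2-/+ livers. The arrays differed in the SD of their probe values. It was 1.83, 1.56 and 1.52 in Mdr2-/+ replicates 1 to 3 and 1.70, 1.75 and 1.66 in Mdr2-KO replicates 1 to 3. With arrays divided by their SD, 543 low CGIs were higher and 231 lower in all 3 Mdr2-KO livers. With quantile normalization these were 383 and 452. The exchanged rule was not rerun in these settings, and the part of the spread in its counts was not tested.

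**Figure D2:**
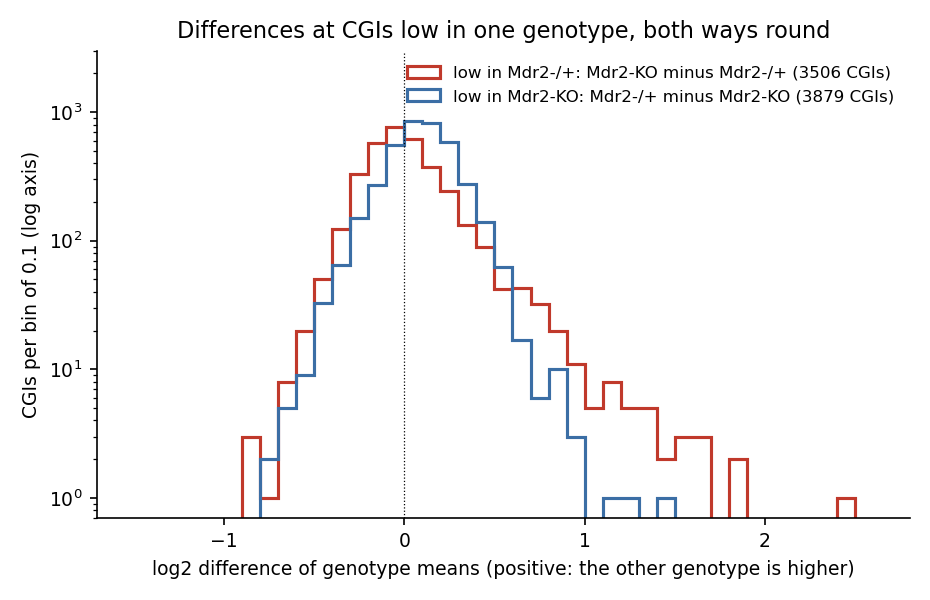
Numbers of CGIs (log axis, bins of 0.1) by the log2 difference of genotype means, for the 3506 CGIs low in Mdr2-/+ liver (red, Mdr2-KO minus Mdr2-/+) and the 3879 CGIs low in Mdr2-KO liver (blue, Mdr2-/+ minus Mdr2-KO). The curves lie close together at small differences, and the red one reaches further right, with 34 CGIs at 1 or more against 3.

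Arrays that did not choose the CGIs gave a further reading, which was added after the data had been seen. CGIs were chosen as low on Mdr2-/+ replicates 2 and 3, and as gaining where Mdr2-KO replicates 2 and 3 were both higher than these and above 0. There were 58 such CGIs. On slide 1, whose arrays had no part in this choice, 57 of the 58 (98.3%) were higher in Mdr2-KO replicate 1 than in Mdr2-/+ replicate 1, with a median difference of 0.70 (quartiles 0.47 and 1.03). Mdr2-KO replicate 1 was itself above 0 at 47 of them. Mdr2-/+ replicate 1 was at or below -0.5 at only 26 of the 58, so many were not low in that control. Among all 3464 CGIs chosen as low on Mdr2-/+ replicates 2 and 3, 53.8% were higher in Mdr2-KO replicate 1, with a median difference of 0.02. At 2790 of the 3464, Mdr2-/+ replicate 1 was at or below -0.5. With the genotypes exchanged 3943 CGIs were low, of which 54.6% were higher in Mdr2-/+ replicate 1 with a median difference of 0.03. Only 9 of these gained by the same criterion, and 6 of the 9 kept their direction on slide 1. Slide 1 holds 1 liver of each genotype, so these values have no replicate error of their own.

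The small gains held up less well on slide 1. Of the 839 CGIs low in Mdr2-/+ replicates 2 and 3 at which Mdr2-KO replicates 2 and 3 were both higher by any amount, 607 (72.3%) were also higher on slide 1, with a median difference of 0.19. With the genotypes exchanged, 984 of 1610 (61.1%) kept their direction, with a median difference of 0.07. Of the 48 whose mean difference was 1 or more, all 48 were higher there, by 0.22 to 3.40. Within slide 1 the 93 CGIs called higher in the fit of all livers differed by 0.42 to 3.40, with a median of 0.80. These arrays were part of that fit. The direction there was fixed beforehand, because the genotypes did not overlap at any of the 93, and it is no further support.

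Which CGIs passed limma's threshold depended on single arrays. With 1 Mdr2-/+ array choosing the CGIs and the other 5 arrays compared, limma called 176 of 3651 CGIs higher (4.82%, against 19.1% of all CGIs) and 124 lower (3.4%, against 2.37%) when replicate 1 chose. When replicate 2 chose, it called 8 of 3532 higher (0.227%, against 0.658%) and 1 lower (0.0283%, against 0.0434%). When replicate 3 chose, it called 3 of 3471 higher (0.0864%, against 0.463%) and 0 lower (against 0.00723%), while 258 were higher and 169 lower by an unadjusted p under 0.05. The CGIs that differed by 1 or more were 32, 35 and 26 in these comparisons, against 3, 2 and 9 that differed by -1 or less. Differences of 1 or more outnumbered those of -1 or less whichever array chose, while the number of calls was not stable. These counts have no share over all CGIs beside them, and the calls over all CGIs leaned upward too in each comparison. In these comparisons the genotypes were still mostly on different slides. Within slide 1 alone, 27 of the 3464 CGIs chosen as low on Mdr2-/+ replicates 2 and 3 were higher in Mdr2-KO replicate 1 by 1 or more and 10 were lower by as much. With the genotypes exchanged these counts were 17 and 2 of 3943 CGIs. On this slide the lean towards the other genotype was thus not particular to CGIs low in Mdr2-/+ liver. Over all 13822 CGIs on slide 1, 176 were higher in Mdr2-KO replicate 1 by 1 or more and 58 were lower by as much.

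The 93 calls themselves fell to 8 without Mdr2-/+ replicate 2, 3 without Mdr2-/+ replicate 3, 1 without Mdr2-KO replicate 1, 23 without Mdr2-KO replicate 2 and 62 without Mdr2-KO replicate 3, and all 93 stayed without Mdr2-/+ replicate 1. Over all CGIs the higher calls moved alike, from 591 to 91, 64, 33, 151, 445 and 2640 in the same order. In each of these fits all 93 kept a higher level in Mdr2-KO livers, by at least 0.47. Their direction was fixed beforehand, since the livers of the genotypes did not overlap at any of the 93. Mdr2-KO replicate 2 had the highest of the Mdr2-KO values at 71 of the 93, replicate 1 at 15 and replicate 3 at 7. Over all 3506 low CGIs, replicate 2 was the highest Mdr2-KO liver at 840 (24%) and the lowest at 1807 (51.5%). With slide as a fixed block, where the contrast is that of the pair on slide 1, limma called 1 low CGI higher and 0 lower, with 257 and 95 at an unadjusted p under 0.05. With normexp background correction limma called 0 of the low CGIs in either direction, and by an unadjusted p under 0.05 it had 116 higher and 0 lower, and by quantile normalization 158 were called higher and 55 lower, where 7.16% and 2.75% of all CGIs were called.

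Both channels of the ratio were also read apart. The ratio itself had chosen these CGIs, so the split is a description and no test. At the 93 CGIs the MeDIP signal was higher in Mdr2-KO livers at 93, with a median difference of 0.76 on the log2 scale after centring. The input signal was higher at 42 of them, with a median difference of -0.004. Part of the Mdr2-/+ signal was near the floor of the array. Of the 604 probes of these CGIs, 94 had a MeDIP signal not well above background on every Mdr2-/+ array, and 56 of the 93 CGIs had at least 1 such probe. Without those 94 probes the median difference of the 93 CGIs remained 0.84 (range 0.16 to 2.46), and 89 were still higher in every Mdr2-KO liver. The 94 probes had a median difference of 1.15 against 0.82 at the others, and 34 of them were well above background on all Mdr2-KO arrays. Only 16 of the 93 CGIs had every probe well above background on every Mdr2-/+ array. Of the 35 called CGIs with every Mdr2-KO liver above 0, 12 held none of the 94 probes.

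The largest gain was at a CGI with 4 probes on chromosome 2 at 132570647 to 132571264 (mm8 build, as are all positions here). Its level was -1.43, -0.34 and -0.91 in Mdr2-/+ replicates 1 to 3 and 1.96, 1.49 and 1.25 in Mdr2-KO replicates 1 to 3. The livers of the genotypes were far apart, with a difference of 2.46 (limma adjusted p = 0.00791, standard error 0.29). A CGI with 3 probes on the same chromosome, at 74458432 to 74458925, had -1.09, -1.52 and -1.58 in Mdr2-/+ livers and 0.002, 1.19 and 0.06 in Mdr2-KO livers. Here Mdr2-KO replicate 2 stood above the other 2 mutants, which only reached the median of their arrays. The difference was 1.81 (limma adjusted p = 0.0217, standard error 0.31), and it was 1.09 within slide 1, 0.95 where probe starts up to 1000 bp apart were joined (limma adjusted p = 0.0501), and -0.06 with normexp background correction. On every Mdr2-/+ array 2 of its 3 probes were not well above background, and the part of this in the result was not tested. The third CGI on chromosome 2, of 3 probes at 55252582 to 55252858, had one of the lowest starting levels of those called. It had -1.86, -1.33 and -1.97 in Mdr2-/+ livers and -0.41, 0.13 and 0.04 in Mdr2-KO livers, a difference of 1.64 (limma adjusted p = 0.00961, standard error 0.21). The gain there ended near the array median.

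On chromosome 4, a CGI with 3 probes at 88747815 to 88748191 had -0.06, -1.38 and -1.27 in Mdr2-/+ livers and 0.76, 1.13 and 0.83 in Mdr2-KO livers. Mdr2-/+ replicate 1 was not low at this CGI, and its mean of -0.90 ± 0.73 (SD, n = 3) rested on the other 2 controls. The difference was 1.81 (limma adjusted p = 0.0252, standard error 0.33) and 0.82 within slide 1. A CGI with 4 probes on chromosome 4, at 44724191 to 44724653, had -1.01, -0.54 and -0.42 in Mdr2-/+ livers and 0.96, 1.29 and 0.64 in Mdr2-KO livers. All 4 of its probes were raised, and every mutant was above 0.5. The difference was 1.62 (limma adjusted p = 0.01, standard error 0.21).

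Longer CGIs were among the largest gains too. A CGI with 10 probes on chromosome 6 at 70885652 to 70886926 had -0.46, -0.72 and -0.58 in Mdr2-/+ livers and 0.76, 2.01 and 0.50 in Mdr2-KO livers. The controls were close together and Mdr2-KO replicate 2 was far above the other mutants, for a difference of 1.68 (limma adjusted p = 0.0377, standard error 0.35), which loess within arrays brought to 0.74 (limma adjusted p = 0.0577). A CGI with 12 probes on chromosome 5 at 127530799 to 127532165 had -0.64, -0.82 and -0.47 in Mdr2-/+ livers and 0.62, 1.64 and 0.36 in Mdr2-KO livers. The order of the mutants was the same as on chromosome 6, and the difference was 1.52 (limma adjusted p = 0.0335, standard error 0.30). On chromosome 18, a CGI with 9 probes at 81147595 to 81148856 had -0.84, -1.05 and -0.81 in Mdr2-/+ livers and 0.47, 1.25 and 0.10 in Mdr2-KO livers, a difference of 1.51 (limma adjusted p = 0.0231, standard error 0.26).

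Both remaining CGIs of the 10 largest gains lay on chromosome 7 and differed in where the gain ended. The CGI with 4 probes at 11703535 to 11703902 had -0.27, -1.15 and -0.43 in Mdr2-/+ livers and 0.67, 1.14 and 0.88 in Mdr2-KO livers, so that all mutants ended well above 0, with a difference of 0.94 within slide 1. The CGI with 6 probes at 79381937 to 79382718 had -1.58, -1.77 and -1.74 in Mdr2-/+ livers and -0.56, 0.30 and -0.46 in Mdr2-KO livers, so that 2 of the 3 mutants stayed below 0. Their differences were 1.51 (limma adjusted p = 0.0168, standard error 0.24) and 1.46 (limma adjusted p = 0.0152, standard error 0.22).

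**Figure D3:**
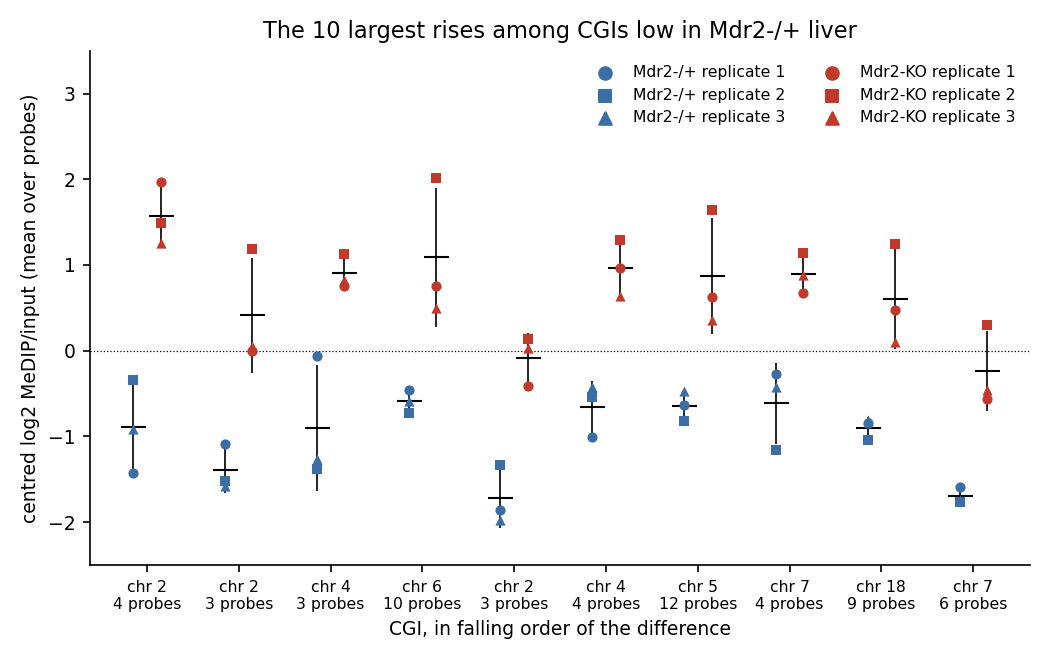
The 10 largest gains among the CGIs low in Mdr2-/+ liver, each with its centred log2 MeDIP/input ratio in every liver (blue, Mdr2-/+; red, Mdr2-KO; the shape gives the replicate). Black dashes and lines give mean ± SD (n = 3 mice); the genotypes do not overlap at any of the 10, and Mdr2-KO replicate 2 is often the highest.

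The falls called were smaller than the gains, and fewer. The largest, at a CGI with 3 probes on chromosome 1 at 193839090 to 193839421, went from -1.25, -0.77 and -0.85 in Mdr2-/+ livers to -1.86, -1.61 and -1.60 in Mdr2-KO livers (difference -0.73, limma adjusted p = 0.0417, standard error 0.16). It was -0.34 with probe starts up to 1000 bp apart (limma adjusted p = 0.12) and -0.42 with the median over probes (limma adjusted p = 0.301). The next, at a CGI with 5 probes on chromosome 8 at 46831943 to 46832367, went from -1.16, -1.26 and -1.31 to -1.70, -1.99 and -1.76 (difference -0.58, limma adjusted p = 0.0411, standard error 0.12). On every Mdr2-/+ array, 4 of these 5 probes had MeDIP signal near background. The other 3 of the 5 largest falls, on chromosomes 12, 17 and 2, had differences of -0.55, -0.55 and -0.53, and that on chromosome 12 was 0.02 with normexp background correction. All 5 named falls lost their call with the median over probes and without any 1 array other than Mdr2-/+ replicate 1, and 4 of the 5 lost it with loess.

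Over the probes of a CGI the gain was broad but seldom whole. A probe was counted as raised where its lowest Mdr2-KO value was above its highest Mdr2-/+ value. Of the 604 probes of the 93 CGIs called higher, 438 (72.5%) were raised, 93.5% had a difference above 0 and 1 had fallen. At the 3413 low CGIs not called higher, 2098 of 21702 probes were raised (9.67%) and 2176 had fallen. Since the calls rest on the same probes, these shares describe the 93 CGIs and test nothing.

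The median CGI of the 93 had 75% of its probes raised (quartiles 66.7% and 88.9%). All probes were raised at 20 of them, at least as many raised as not at 87, and fewer at 6. Of the 20, 15 were among the 33 CGIs with 3 or 4 probes and 5 among the 60 with at least 5 probes. The raised probes formed 1 unbroken stretch at 62 CGIs. Without the probe of the largest difference the median difference of a CGI was 0.68 and the lowest was 0.16. At the 489 other CGIs on chromosomes 1 to 19 that limma called higher, which started from higher levels, 79.1% of probes were raised. The median CGI there had 84.6% of its probes raised, and 185 CGIs had all of them raised. Of these 185, 100 were among 156 CGIs with 3 or 4 probes and 85 among 333 with at least 5 probes.

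**Figure D4:**
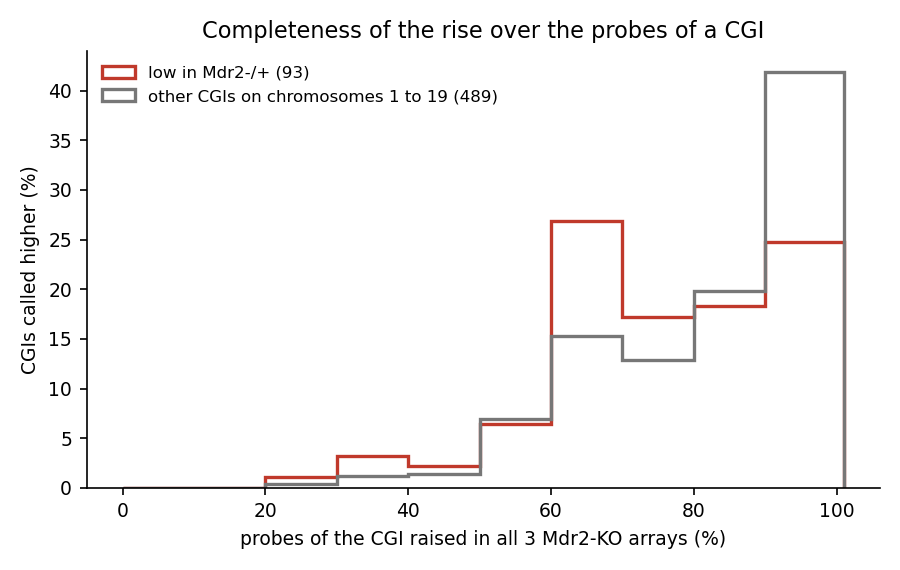
Share of the probes of a CGI that were raised in all 3 Mdr2-KO livers (x axis, %), as the percentage of the CGIs called higher by limma (y axis), for the 93 CGIs low in Mdr2-/+ liver (red) and the 489 other CGIs (grey). The rightmost bin, 90% to 100%, is lower for the CGIs that started low, of which 20 had every probe raised against 185 of the others.

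The difference was on average larger in the middle of a CGI than at its ends. In the 60 called CGIs with at least 5 probes, the mean difference was 0.96 ± 0.33 (SD over 60 CGIs) at the inner probes and 0.72 ± 0.46 (SD over 60 CGIs) at the first and last probe. The inner probes were above the ends at 44 of the 60. The other called CGIs shared this pattern. In the 333 of them with at least 5 probes, the means were 1.13 and 0.85, with the inner probes above the ends at 249. Neither difference was tested.

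The called CGI with the most probes had 17 and lay on chromosome 3 at 45475757 to 45477910. It had -0.78, -0.60 and -0.45 in Mdr2-/+ livers and 0.55, 1.26 and 0.30 in Mdr2-KO livers, a difference of 1.31 (limma adjusted p = 0.0249, standard error 0.24). At 13 of its probes the mutants were all above the controls, with differences of up to 2.96. The first 3 probes were not raised, and the one 69 bp from the first was high in both genotypes, at 1.28, 0.85 and 0.92 in Mdr2-/+ livers and 1.07, 1.24 and 0.97 in Mdr2-KO livers. Probe levels within a low CGI were thus not all low.

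Other long CGIs showed a partial gain. On chromosome 14, a CGI with 15 probes at 67076809 to 67078483 had 9 raised probes, with a difference of 1.15 (limma adjusted p = 0.0324, standard error 0.23). On chromosome 18, a CGI with 15 probes at 42520284 to 42521985 had 7 raised probes, with a difference of 0.86 (limma adjusted p = 0.0146, standard error 0.13). The CGIs with 13 probes on chromosome 6 from 52162924 and on chromosome 16 from 90031323 had 8 and 7 raised probes, with differences of 0.89 and 0.77, of which the latter was -0.004 with normexp background correction.

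In the least complete CGIs the rise was local. On chromosome 18, 4 of 11 probes were raised in a CGI at 38080749 to 38082138. Its last 3 probes were raised by 1.59, 3.05 and 2.86, with Mdr2-KO values of 2.29, 2.28 and 2.29 at the middle one of these against -0.08, -1.31 and -0.90 in Mdr2-/+ livers. The other 8 probes had differences between -0.67 and 0.63. The mean over the CGI, with a difference of 0.67 (limma adjusted p = 0.0231, standard error 0.12), did not show this border inside the CGI, and the Mdr2-KO levels of the CGI were -0.15, -0.36 and -0.12. On chromosome 7, 1 of 5 probes was raised in a CGI at 18337731 to 18338387, by 2.07. On chromosome 9, 1 of 3 probes was raised in a CGI at 96287509 to 96288148, and without its largest probe the difference of that CGI went from 0.68 to 0.16. With the median over probes the differences of the CGIs on chromosomes 18 and 9 were 0.34 and 0.20, and limma called neither (adjusted p = 0.505 and 0.686).

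**Figure D5:**
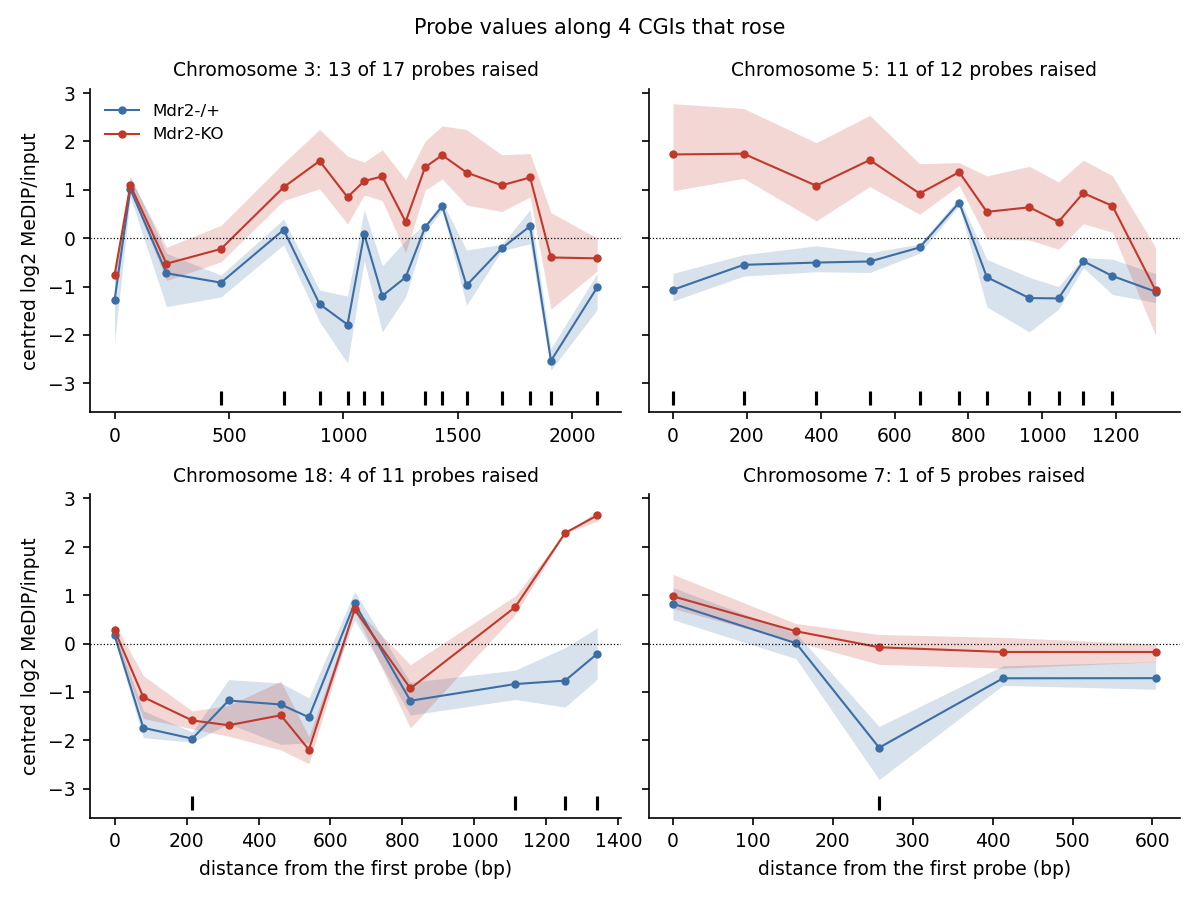
Probe values along 4 CGIs called higher, as the centred log2 MeDIP/input ratio against the distance from the first probe in bp. Lines are means and shaded bands the range over 3 livers (blue, Mdr2-/+; red, Mdr2-KO), and black ticks mark the raised probes (13 of 17, 11 of 12, 4 of 11 and 1 of 5); the gain covers most of the upper CGIs and only one end or 1 probe of the lower ones.

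Local gains were also present in low CGIs that limma did not call. Of the 3406 low CGIs called neither higher nor lower, 84 held at least 3 adjacent raised probes and 31 held at least 3 adjacent fallen ones. The mean difference over that stretch was 1 or more at 23 of the 84, and -1 or less at 1 of the 31. The largest was in a CGI with 14 probes on chromosome 11 at 104047078 to 104049096, where 3 adjacent probes were raised by 1.85 on average while the CGI differed by 0.30 (limma adjusted p = 0.203). A CGI with 7 probes on chromosome 17 at 7019389 to 7020299 had 4 adjacent probes raised by 1.74 on average, within a CGI difference of 1.11 (limma adjusted p = 0.0537). These stretches were found by their values and were not tested on their own.

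The gains were spread over the genome. Of the 19 chromosomes, 18 held at least 1 of the 93 CGIs called higher. The share of the low CGIs called was highest on chromosome 15, with 8 of 139 (5.76%). Chromosome 11 had 1 of 307, and chromosome 10 had 0 of 190 by limma, with 12 higher there at an unadjusted p under 0.05. Of the 40 CGIs that crossed 0 in every Mdr2-KO liver, 7 lay on chromosome 7. No test was made of these counts.

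Some of the called CGIs lay close together. On chromosome 15, 4 of the 8 fell between 102749463 and 102997456, with differences of 0.87, 1.02, 0.77 and 0.71. On chromosome 7, CGIs from 49503392 to 49503677 and from 49504359 to 49504971 were 682 bp apart and differed by 0.96 and 1.37. On chromosome 2, the CGI from 74458432 described above had a called neighbour 29508 bp away, with a difference of 0.69. The median distance from a called CGI to the next CGI of any kind was 13217 bp, against 28436 bp for the low CGIs not called higher.

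A CGI called higher, of any starting level, lay within 10 kb of 13 of the 93 (14%), and of 82 of all 3506 low CGIs (2.34%). Within 1000 kb the shares were 51.6% and 51.5%. The 93 were built much like the other low CGIs, with a median of 5 probes over 663 bp against 6 probes over 686 bp. The median input level of the 93, relative to the array, was -0.01 against -0.22 at the low CGIs not called higher. The files name no genes at these positions and no mm8 gene annotation was used here, so genes and promoters at the CGIs are not given.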

How the data were processed

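DNA of 6 mouse livers was analysed, 1 array each. The deposited scanner files hold spot intensity values that the authors' scanner software (Agilent Feature Extraction, 10.5.1.1 in the file headers and 8.5.1.1 in the submitters' processing notes) had corrected for background and dye, with a deposited log10 ratio beside them, on 94687 spots, of which 88358 were CGI probes with an mm8 position. No normalization between arrays had been made. A deposited table of the authors' Z score per probe was used only as a check by group, because its Mdr2-/+ columns could not be tied to single arrays.

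From the intensities, log2 of Cy5 over Cy3 was taken, 5950 control spots and 91 probes with an outlier flag on any array were left out, and each array was centred on its median. Probes were averaged into runs of at least 3, giving 13822 CGIs from 85497 probes. Limma 3.58.1 (lmFit, eBayes, two-sided, Benjamini-Hochberg over all 13822, threshold 0.05) compared the genotypes in R 4.3.3, and figures were drawn with matplotlib 3.10.9. The labels call the arrays biological replicates, and their number limits the precision. Named CGIs were the 10 largest rises and 5 largest falls with an adjusted p under 0.05 and no overlap, the 5 called rises with the most probes and the 3 with the lowest share of raised probes, and the 3 CGIs on each side of the threshold. In data simulated with the levels and SD of these CGIs, limma recovered 96 of 100 CGIs shifted by 1 on the log2 scale. It recovered 100 of 100 shifted by 2, with 11 false calls among 13822 CGIs. The simulated errors were independent and held no slide effect, so these values check the code and cannot say how reliable the calls are.

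The alternatives were outlier spots kept, quantile normalization, division by the array SD, loess, normexp (on median signals, since mean signals were not used here), the deposited log ratio, filters on dim probes, other definitions of a CGI and of low, each array left out, replicate and slide blocks, array weights, robust eBayes and the methods' t-test. The members and lists were chosen with earlier results of these data known. Counts of gene lists were not made, since the files pair no probe with a gene.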

Additional observations from a re-analysis of the deposited data

How the results depend on the processing

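The number of gains called moved with the processing. All 93 CGIs called higher kept their direction in each fit without 1 array. That outcome was fixed beforehand, since the genotypes did not overlap at these CGIs, and says nothing about stability. Limma called 158 low CGIs higher and 55 lower with quantile normalization (452 lower in all 3 Mdr2-KO livers), 197 and 17 with arrays divided by their SD, 53 and 2 with loess (15 of the 53 with every Mdr2-KO liver above 0), and 291 and 127 with array weights. Over all CGIs the calls moved alike, from 591 higher and 29 lower to 990 and 380, 1270 and 146, 399 and 21, and 2562 and 569 in these settings. The median share of raised probes was 66.7% with quantile normalization, with division by the SD and with at least 5 probes. With normexp background correction 758 CGIs were low, 123 were higher and 0 lower in all 3 Mdr2-KO livers, the median difference was 0.30, and limma called 0 higher (0 above 0 in every Mdr2-KO liver) and 0 lower (116 and 0 by an unadjusted p under 0.05). The differences of the CGIs on chromosome 2 from 74458432 (-0.061), on chromosome 12 from 85108067 (0.023) and on chromosome 16 from 90031323 (-0.0041) changed sign under it. All 23 named CGIs that had been called lost their call under it, and 22 were smaller by over 1.5 times or changed sign, the largest gain from 2.46 to 0.73 and that on chromosome 7 from 79381937 from 1.46 to 0.10. The cause was not tested.

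With at least 5 probes 300 CGIs were higher in all 3 Mdr2-KO livers and 23 were called with every Mdr2-KO liver above 0, and with the median over probes 3 were called lower. A threshold of -0.3 gave 694 higher and 523 lower in all 3, 145 called higher and 85 of them above 0. A threshold of -1 gave 731 CGIs, 102 higher and 25 lower in all 3, 19 called higher and 1 lower, a median difference of 0.036 and 2 above 0. With every Mdr2-/+ array at -0.5 or less, 12 of those called were above 0.

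With members chosen again without each array in turn, 3464 to 3556 CGIs were low, 536 to 719 were higher and 370 to 582 lower in all Mdr2-KO livers left, limma called 1 to 254 higher and 0 to 61 lower, the median difference was -0.04 to 0.02, and 1 to 45 of those called were above 0. The lowest count of higher calls was without Mdr2-KO replicate 1 (1, with 271 at an unadjusted p under 0.05) and the highest without Mdr2-/+ replicate 1 (254). Over all CGIs the same fits called 33 (0.239%) and 2640 (19.1%) higher, and 1 (0.00723%) and 328 (2.37%) lower. Lower calls among the low CGIs were 0 without Mdr2-/+ replicate 2, Mdr2-/+ replicate 3, Mdr2-KO replicate 1 or Mdr2-KO replicate 3, with 90, 96, 109 and 154 at an unadjusted p under 0.05. Such omissions leave 2 arrays in a group, fewer samples than in the full fit.

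Same-numbered arrays did not deviate together over the low CGIs (correlations of 0.02, -0.02 and 0.03), so the numbers were not taken to pair them. With the replicate number as a block limma called 67 higher, 63 of them among the 93, and 3 lower. With slide as a fixed block the calls were 1 higher and 0 lower (257 and 95 by unadjusted p under 0.05), and with slide as a random block 77 higher, all 77 among the 93, and 1 lower. Over all CGIs the replicate block called 477 higher and 17 lower, the fixed slide block 7 and 4, and the random slide block 454 and 14. The methods' t-test had 311 higher and 156 lower before adjustment and 0 and 0 after Benjamini-Hochberg, where limma had 93 and 7. Over all 13822 CGIs that t-test had 1596 higher (11.5%) and 840 lower (6.08%) before adjustment, and 4 and 1 after. The pair on slide 1 had a median difference of 0.047. Low CGIs chosen on 1 Mdr2-/+ array and compared on the others gave 176 higher and 124 lower with a median difference of -0.073 (chosen on replicate 1), 8 and 1 (replicate 2), and 3 and 0 (replicate 3). Chosen on the Mdr2-KO arrays, 143 were higher and 648 lower in all 3 Mdr2-KO livers, 4 were called higher and 20 lower, and the median difference was -0.10. In the authors' Z score table, 92 of the 93 CGIs called higher had a higher group mean in Mdr2-KO livers, with a median Z score difference of 0.47. Those scores come from the same arrays, so they check the processing and are no separate evidence.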

Other observations

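The X chromosome was outside the rule. Of its 385 CGIs, 32 had a Mdr2-/+ mean of -0.5 or less. Of these, 4 were higher and 5 lower in all 3 Mdr2-KO livers, and limma called 1 higher, which also had every Mdr2-KO liver above 0.

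Limits of these values are that 4 of the 6 arrays have slide and genotype joined, that the ratio is relative to each array, and that many probes of low CGIs were near background, where a MeDIP ratio gives only a bound. The shallow gains make up most of the 454, and the exchanged rule gave as many or more separations, so no single CGI of small difference is singled out here.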
